A study of Ovis aries with 9 samples.

Results

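The expression of genes that encode the proteasome was examined in ovine granulosa cells (GCs) cultured with 0, 8.4 or 33.6 mM glucose. Members were the genes whose symbol is PSM followed by a letter from A to G and a number, and this rule took 41 of 39157 genes in the gene-level expression table. Each of the 41 symbols had 1 row. The set held 6 alpha ring genes, 6 beta ring genes, 3 genes of the immunoproteasome beta forms, the testis form PSMA8, 5 ATPases and 11 other subunits of the 19S cap, the 19S assembly chaperone PSMD5, 4 activators, the inhibitor PSMF1 and 3 assembly chaperones of the core. The RefSeq annotation of the sheep genome ARS-UI_Ramb_v3.0 lists 48 symbols of this form, and PSMA2, PSMB6, PSMB11, PSMC6, PSMD9, PSMD10 and PSMG4 were not analysed here because no row carried those names.

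The proteasome is the protease complex that degrades proteins tagged with ubiquitin. Its core is a barrel of stacked alpha and beta rings, in which the outer alpha subunits form the gate and the beta subunits PSMB5, PSMB6 and PSMB7 cut the protein chain inside. The 19S cap sits on the barrel, binds the ubiquitin tag, removes it and unfolds the substrate with a ring of ATPases. Under interferon, PSMB8, PSMB9 and PSMB10 replace the 3 cutting subunits, and the activator made of PSME1 and PSME2 can take the place of the cap. Dividing cells such as the GCs of growing follicles use the proteasome to remove cell cycle regulators, and stressed cells use it to clear damaged proteins.

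The cells came from thin-tailed Han ewes, which the study's methods describe as 1 year old or somewhat older. Follicles of 3 to 5 mm from more than 50 ovaries were punctured, and their suspensions were pooled before culture. After 48 h of culture and a further 8 h without glucose and serum, which each group shared, the cells were kept for 24 h with glucose at 0 mM, named CON, at 8.4 mM, named LOW, or at 33.6 mM, named HIGH. Each group had 3 libraries from this pooled source, so the p-values measure the spread between these cultures and not between animals.

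The values are FPKM, fragment numbers divided by transcript length and library size. In the deposited values labelled as counts, 1 FPKM stood for 48.0 to 71.3 units per kilobase of genomic span in the 9 libraries, apart from Ensembl genes without a symbol. Those values are rescaled FPKM, so this factor is not a measured depth. Small RNA genes took 56.6 to 73.8% of summed FPKM in the CON libraries, 71.4 to 76.3% in those of LOW and 32.0 to 72.3% in those of HIGH. This class held 2941 genes picked by name, from families of small noncoding, ribosomal and related RNA. The name pattern can also take coding genes whose symbols begin alike. The first principal component of the 24243 tested genes held 43.3% of the variance, and CON replicate 3 and HIGH replicate 1 lay at its opposite ends. Of 10 granulosa markers, 7 had a row and 5 reached 1 FPKM in every library, while FOXL2, CYP19A1 and AMH were not analysed here and the FSH receptor FSHR stayed between 0.22 and 0.56 FPKM. The summed level of the granulosa list was 39.2 to 50.96 FPKM and that of 8 stromal markers, such as lumican (LUM), 4640 to 6713 FPKM. Among markers of other cells, endothelial genes summed to at most 0.165 FPKM, theca genes to 3.82 to 8.04 FPKM and immune genes to 14.6 to 20.9 FPKM. The immune sum came mostly from CD14 and CD68, and the other 4 of the 6 immune genes stayed under 1 FPKM in all libraries. TXNIP, a gene known to respond to glucose supply, was 76.2, 90.4 and 103 FPKM in CON, 211, 216 and 218 FPKM in LOW and 180, 215 and 207 FPKM in HIGH. Its CON libraries lay below the other 6, but the limma adjusted p-values were 0.158 against LOW (log2 fold change -1.37) and 0.190 against HIGH (log2 fold change -1.19), and 0.0349 and 0.0395 without CON replicate 3.

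Proteasome genes were abundant in these cells. In every library 40 of the 41 members reached 1 FPKM, PSMB4 was the highest member and PSMA8 the lowest. PSMB4, a beta ring subunit without a cutting site, was on average higher than 99.3% of all tested genes. PSMA8, which replaces an alpha subunit in the testis, reached 0.290 to 0.619 FPKM and stood above 34.8% of tested genes. Because FPKM is scaled to length, levels of different members can be set side by side, as in the plot of levels by gene.

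**Figure D1:**
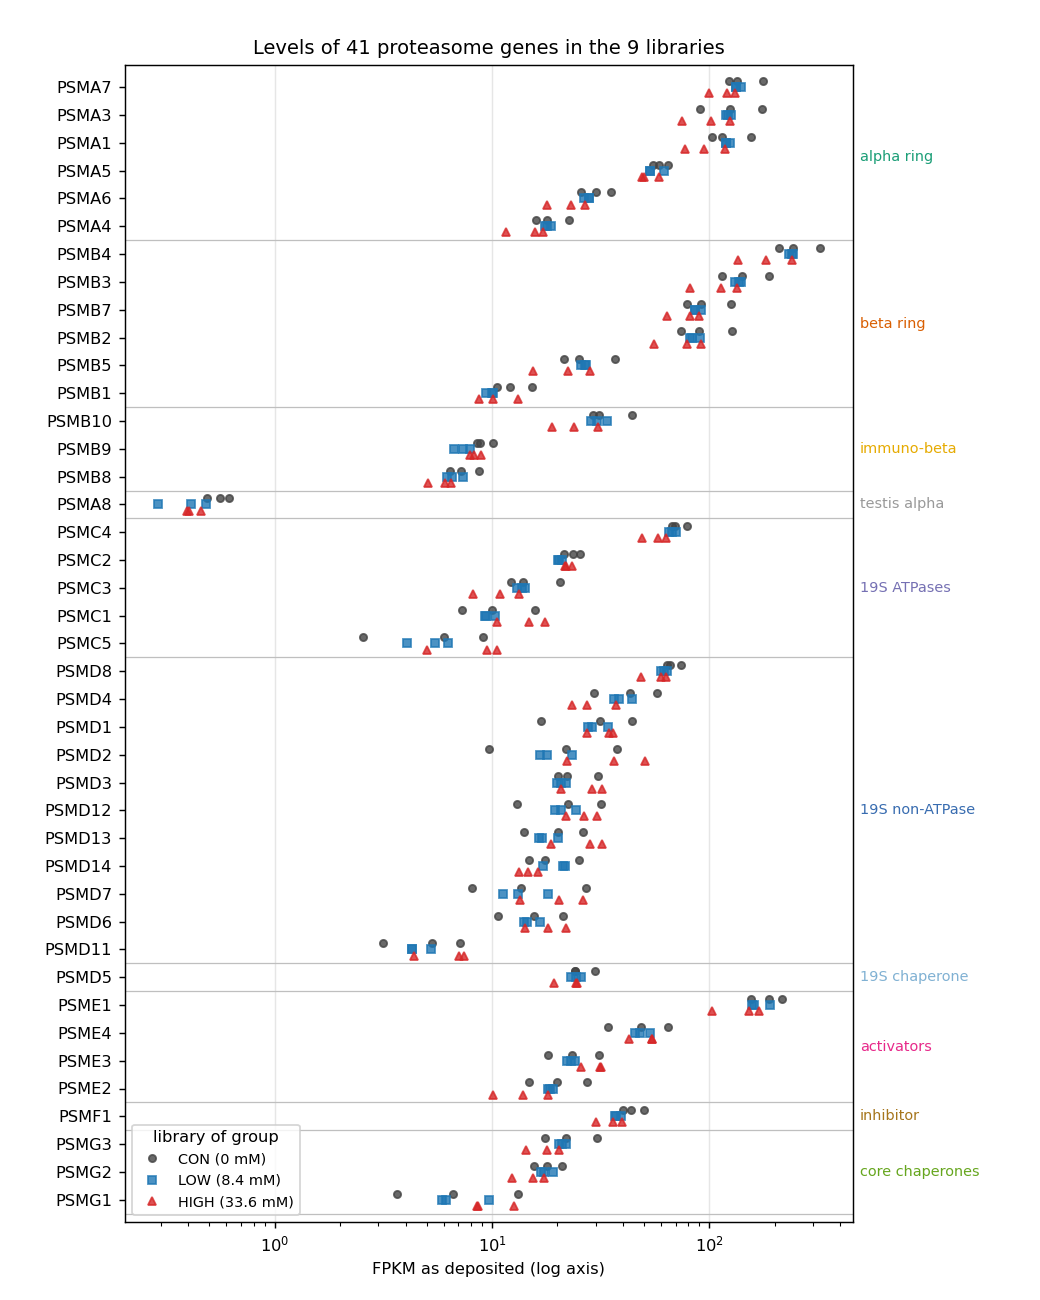
FPKM of the 41 proteasome genes on a log axis, with 1 point per library, coloured by glucose group and ordered by structural part and mean level. PSMB4 lies farthest right and PSMA8 farthest left, and the 3 points of LOW lie closest together for most genes.

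The core did not have equal RNA for its subunits, although each ring position holds 1 copy of its subunit. Averaged over the 9 libraries, the alpha ring ran from 132 FPKM for PSMA7, 117 for PSMA3 and 114 for PSMA1, through 56.0 for PSMA5 and 26.8 for PSMA6, to 17.2 for PSMA4. The beta ring was wider, from 227 FPKM for PSMB4, 131 for PSMB3, 88.3 for PSMB7 and 85.7 for PSMB2 to 25.4 for PSMB5 and 11.04 for PSMB1. Within every library PSMA7 was above PSMA3 and PSMA1. The order of PSMA3 and PSMA1 changed between libraries, and so did that of PSMB7 and PSMB2. The low value of PSMB1 was read from a row that also holds PSMB1-OT1, an overlapping noncoding transcript.

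PSMB4 was 208, 242 and 322 FPKM in CON, 232, 239 and 242 FPKM in LOW and 135, 182 and 239 FPKM in HIGH. CON replicate 3 was the highest and HIGH replicate 1 the lowest, and HIGH replicate 3 lay among the LOW libraries. PSMA7, the highest alpha subunit, was 123, 134 and 177 FPKM in CON, 133, 133 and 140 FPKM in LOW and 99.9, 120 and 131 FPKM in HIGH. PSMA4, the lowest alpha subunit, was 15.9, 17.9 and 22.5 FPKM in CON, 17.5, 18.6 and 17.8 FPKM in LOW and 11.6, 15.7 and 17.2 FPKM in HIGH. For both alpha subunits LOW stood above HIGH without overlap, and CON overlapped both groups. PSMB1, the lowest beta subunit, behaved differently from the rest of the ring, with 15.3, 12.1 and 10.6 FPKM in CON, 10.1, 9.34 and 9.96 FPKM in LOW and 10.1, 13.1 and 8.72 FPKM in HIGH. Its CON libraries lay above LOW without overlap, and CON replicate 1, not 3, was its highest library.

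Summed over the 6 alpha ring genes, FPKM was 507 ± 111 in CON, 480 ± 12.2 in LOW and 404 ± 72.6 in HIGH (SD, n = 3 each). The 6 beta ring genes summed to 641 ± 153 in CON, 583 ± 15.0 in LOW and 481 ± 115 in HIGH (SD, n = 3 each). The spread of CON and HIGH was thus several times that of LOW, and the CON libraries reached below the lowest LOW library in both rings.

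Of the cutting subunits with a row, PSMB5, which carries the chymotrypsin-like site, was 21.4, 25.0 and 36.6 FPKM in CON, 25.6, 27.0 and 26.7 FPKM in LOW and 15.4, 22.4 and 28.2 FPKM in HIGH. PSMB7, which carries the trypsin-like site, was 78.6, 91.9 and 126 FPKM in CON, 85.9, 91.1 and 85.95 FPKM in LOW and 63.5, 81.9 and 89.3 FPKM in HIGH. Both followed PSMB4 in their order of libraries within CON and within HIGH, and the groups overlapped.

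The immunoproteasome forms were expressed throughout, at lower levels than the subunits they replace where both had a row. PSMB8, which replaces PSMB5, was 6.38, 7.17 and 8.68 FPKM in CON, 6.56, 7.33 and 6.23 FPKM in LOW and 5.06, 6.09 and 6.45 FPKM in HIGH. PSMB10, which replaces PSMB7, was 29.0, 31.1 and 44.0 FPKM in CON, 30.4, 33.7 and 28.6 FPKM in LOW and 18.97, 23.8 and 30.8 FPKM in HIGH. Neither gene separated the groups. The ratio of PSMB8 to PSMB5 was 0.274 ± 0.0323 in CON, 0.254 ± 0.0191 in LOW and 0.276 ± 0.0497 in HIGH (SD, n = 3 each), and that of PSMB10 to PSMB7 was 0.352 ± 0.0154, 0.352 ± 0.0191 and 0.311 ± 0.0291. Since both genes of a ratio come from 1 library, no scaling between libraries enters it, and all groups overlapped in both ratios.

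PSMB9, whose constitutive counterpart PSMB6 was not analysed here, was 8.80, 8.51 and 10.1 FPKM in CON, 7.90, 7.37 and 6.67 FPKM in LOW and 7.90, 8.86 and 8.23 FPKM in HIGH. LOW was its lowest group, below CON and, narrowly, below HIGH in FPKM as deposited, and it overlapped both after median scaling. PSMB8 and PSMB9 lie next to each other on chromosome 20 at 7273093-7280060 and 7281103-7296754, with 1042 bases between them, in coordinates as deposited whose build is not given in the sources used here. The neighbours had different lowest libraries, HIGH replicate 1 for PSMB8 and LOW replicate 3 for PSMB9.

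The 19S cap was made of subunits that fell into contrasting profiles across the libraries, as the plot of each gene against its own mean shows. Among the ATPases, PSMC4 was the highest, with 69.5, 67.1 and 78.6 FPKM in CON, 67.1, 70.1 and 65.0 FPKM in LOW and 48.7, 57.8 and 63.5 FPKM in HIGH. Its HIGH libraries lay below all 6 others. PSMC5 was the lowest, with 9.13, 6.01 and 2.54 FPKM in CON, 6.27, 5.47 and 4.08 FPKM in LOW and 10.54, 9.49 and 5.04 FPKM in HIGH. CON replicate 3, the highest library of PSMC4, was the lowest of PSMC5, and the ratio of PSMC4 to PSMC5 ran from 4.62 in HIGH replicate 1 to 31.0 in CON replicate 3.

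**Figure D2:**
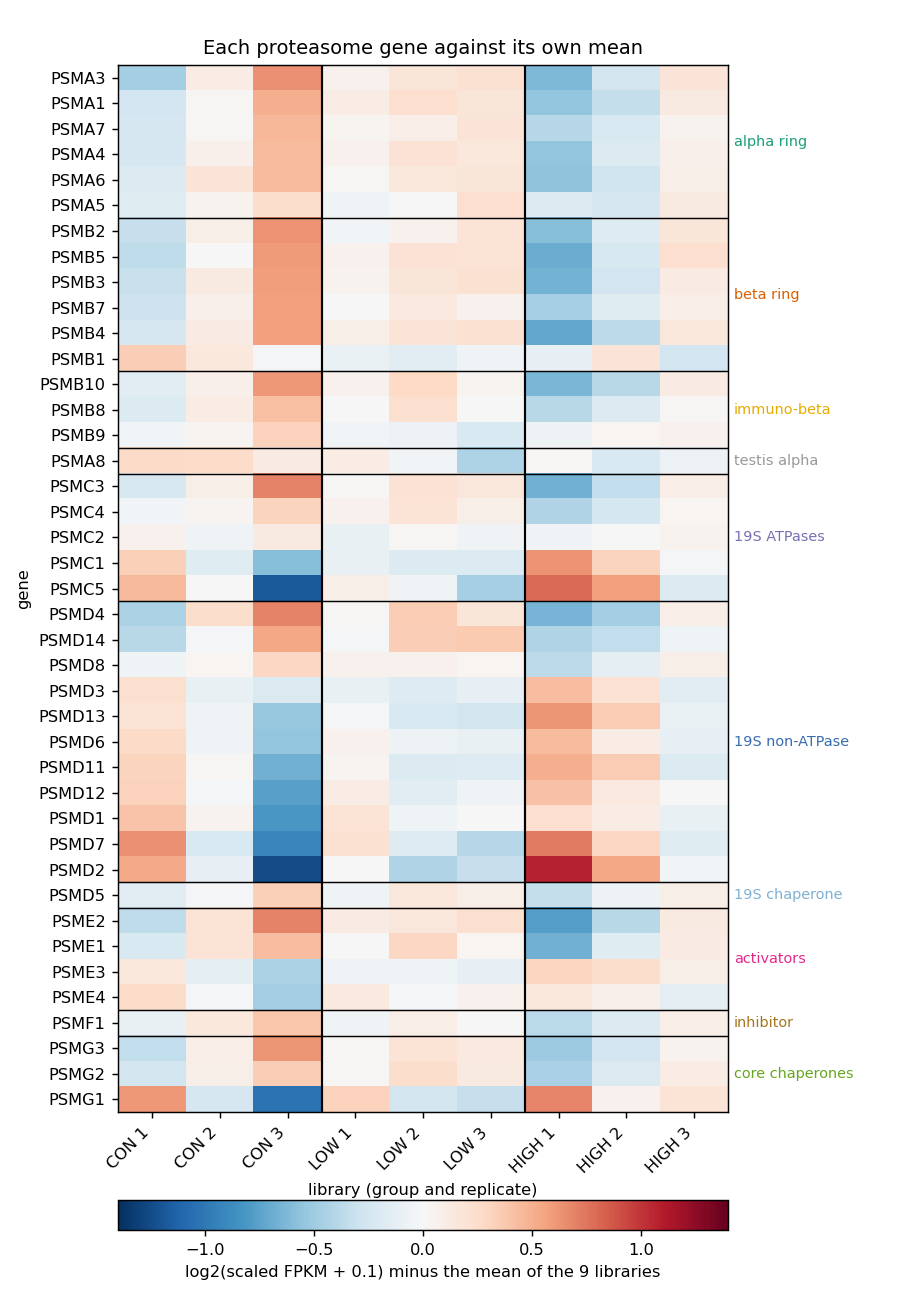
Each cell gives log2(scaled FPKM + 0.1) of a proteasome gene minus its mean over the 9 libraries, with libraries in columns by group and genes in rows by structural part. Most ring genes are red in CON replicate 3 and blue in HIGH replicate 1, while PSMD2, PSMD7, PSMC5 and PSMG1 show the opposite colours.

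Among the other cap subunits PSMD8, a lid subunit, was the highest, with 65.7, 63.7 and 74.3 FPKM in CON, 64.0, 61.5 and 59.6 FPKM in LOW and 48.7, 60.2 and 63.2 FPKM in HIGH. PSMD11, a lid scaffold subunit, was the lowest, with 7.12, 5.27 and 3.14 FPKM in CON, 5.26, 4.30 and 4.30 FPKM in LOW and 7.47, 7.04 and 4.36 FPKM in HIGH. PSMD8 was higher in CON than in HIGH without overlap, and PSMD11 overlapped in all comparisons. The largest range belonged to PSMD2, the base scaffold to which ubiquitin carriers dock, with 37.7, 21.9 and 9.64 FPKM in CON, 23.3, 16.6 and 17.8 FPKM in LOW and 50.5, 36.5 and 22.1 FPKM in HIGH. Its highest library stood 5.24 times above its lowest, and the CON group alone spanned both ends of LOW. PSMD4, a ubiquitin receptor of the cap, ran the other way, with 29.5, 43.2 and 57.5 FPKM in CON, 36.3, 43.9 and 38.4 FPKM in LOW and 23.3, 27.5 and 37.2 FPKM in HIGH.

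Other lid and base subunits divided in the same manner. PSMD14, the deubiquitinase that cuts off the ubiquitin chain, was highest in CON replicate 3 (25.2 FPKM) and lowest in HIGH replicate 1 (13.3 FPKM), and LOW stood above HIGH without overlap. PSMD1, PSMD3, PSMD6, PSMD7, PSMD12 and PSMD13 had CON replicate 1 or HIGH replicate 1 as their highest library. The opposite profiles nearly cancelled in the sum of the 16 cap genes, which was 416 ± 45.04 FPKM in CON, 381 ± 16.3 in LOW and 407 ± 29.2 in HIGH (SD, n = 3 each). PSMD5, a chaperone that helps to assemble the base, was 22.997 to 29.8 FPKM in CON and LOW and 19.3 to 24.6 FPKM in HIGH.

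The activators spanned a wide range of levels. PSME1 was 155, 187 and 215 FPKM in CON, 161, 189 and 156 FPKM in LOW and 103, 153 and 169 FPKM in HIGH. PSME2, its partner in the interferon-inducible ring, was lower, with 14.8, 19.8 and 27.3 FPKM in CON, 18.5, 18.2 and 19.04 FPKM in LOW and 10.2, 13.9 and 18.1 FPKM in HIGH. LOW stood just above HIGH for PSME2, and the groups overlapped for PSME1. The partners lie 2345 bases apart on chromosome 7, PSME2 at 20624296-20630146 and PSME1 at 20632492-20634912. RNA of PSME1 exceeded that of PSME2 by 7.87 to 10.96 times within the libraries, with no separation of the groups.

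PSME3, the nuclear activator that works without ubiquitin, was 31.2, 23.3 and 18.1 FPKM in CON, 24.1, 23.0 and 22.0 FPKM in LOW and 31.2, 31.6 and 25.8 FPKM in HIGH. HIGH lay above LOW without overlap, and HIGH replicates 1 and 2 were slightly above the highest CON library. PSME4, an activator known for work on acetylated histones, was 64.7, 48.5 and 34.0 FPKM in CON, 53.4, 45.4 and 48.1 FPKM in LOW and 54.4, 54.5 and 42.9 FPKM in HIGH. Its 3 groups overlapped. PSMF1, an inhibitor of the core, was 40.02, 43.5 and 49.9 FPKM in CON, 37.2, 39.4 and 36.8 FPKM in LOW and 30.1, 36.1 and 39.8 FPKM in HIGH, so that its 3 CON libraries lay above the other 6.

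The chaperones that assemble the alpha ring did not share a profile. PSMG3, the highest on average, was 17.6, 21.8 and 30.4 FPKM in CON, 20.3, 21.9 and 21.1 FPKM in LOW and 14.4, 17.8 and 20.2 FPKM in HIGH. PSMG1, the lowest, was 13.2, 6.64 and 3.66 FPKM in CON, 9.67, 6.15 and 5.86 FPKM in LOW and 12.6, 8.59 and 8.54 FPKM in HIGH. PSMG2, which pairs with PSMG1, followed PSMG3 instead of its partner, from 12.4 FPKM in HIGH replicate 1 to 20.9 FPKM in CON replicate 3.

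Glucose-free culture was compared with 8.4 mM glucose first. None of the proteasome genes passed the test between CON and LOW, and the fitted means of most differed little. Fitted log2 differences of CON minus LOW ran from -0.18 to 0.34 over the 41 members, all of which passed the filter of 0.1 FPKM in at least 3 libraries. Their median was -0.0088, against -0.022 over all 24243 genes tested. In limma with Benjamini-Hochberg adjustment over those genes, 0 of 41 members were called, which needed an adjusted p under 0.05 together with a change of more than 1 on the log2 scale, where 0.00412% of all genes were called, and the lowest adjusted p of a member was 1.0. At an unadjusted p under 0.05 there were again 0 members, against 2.01% of all genes. For 40 of 41 members the 95% interval of the difference lay inside a 2-fold change in either direction, the exception being PSMC5.

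CON and LOW did not overlap for 5 members, all higher in CON, against 8.85% of all genes without overlap, 7.19% higher in CON and 1.66% higher in LOW. These were PSMA8 (log2 fold change 0.34), PSMB1 (0.25), PSMB9 (0.22), PSMC2, an ATPase, and PSMF1. After median scaling, PSMA8 and PSMB1 were the 2 left, against 6.23% of all genes. The direction of the small differences depended on the scaling, on single CON libraries and on the small RNA share. Of the 41 members 18 were higher in CON after scaling to a common median and 36 with FPKM as deposited, where the median of the members was 0.089 and that of all genes 0.066. Without CON replicate 1, 28 members were higher in CON. The 12 ring genes, of which 4 were higher in CON, had 12 higher without CON replicate 1, 1 without CON replicate 3, and 12 with the small RNA share as a covariate (median 0.14).

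Glucose-free culture was next compared with 33.6 mM glucose. No member passed the test, and the fitted means of the ring genes were higher in CON while those of the cap genes went both ways. The 12 ring genes had a higher fitted mean in CON in 12 of 12 cases, with log2 differences of 0.14 to 0.46 and a median of 0.32. Of the 16 cap genes 6 were higher in CON and 10 higher in HIGH, with a median of -0.23. Over all genes tested the median was -0.079, and 42.6% were higher in CON, so the cap count of 37.5% was near that of all genes.

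At the thresholds used, 0 of 41 members were called in CON versus HIGH, where 0.00825% of all genes were called, and the lowest adjusted p of a member in limma was 0.679. At an unadjusted p under 0.05 there were 0 members, against 6.76% of all genes. That number depended on single libraries, since it was 27 members without CON replicate 1 (24.5% of all genes) and 16 without HIGH replicate 3 (12.97%), with 0 called in either case and adjusted p-values of at least 0.186. PSMB4 was higher in CON by 0.46 ± 0.25 on the log2 scale (SE), PSMB5 by 0.31 ± 0.27, PSMB8 by 0.30 ± 0.18 and PSMB10 by 0.48 ± 0.23. The extremes among the cap genes were PSMD2 at -0.81 ± 0.42 and PSMC5 at -0.63 ± 0.41 on one side, and PSMD4 at 0.51 ± 0.29 and PSMC3, an ATPase, at 0.49 ± 0.25 on the other. The 95% interval included 0 for every one of the 41 members, and for 32 it lay inside a 2-fold change. Groups without overlap were found for 4 members, PSMA8, PSMC4 (log2 fold change 0.32), PSMD8 (0.22) and PSMF1 (0.31), all higher in CON, against 11.1% of all genes (7.06% higher in CON and 4.08% higher in HIGH). After median scaling PSMA8 alone remained, against 9.93% of all genes.

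The regulators split as well. PSME1 and PSME2 were higher in CON by 0.38 ± 0.23 and 0.52 ± 0.28 on the log2 scale (SE), whereas PSME3 was at -0.34 ± 0.15, the smallest unadjusted p of the 41 members. Among the core chaperones, PSMG3 was at 0.36 ± 0.23 and PSMG1 at -0.53 ± 0.38. The adjusted p of each of these was 0.679 in limma.

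**Figure D3:**
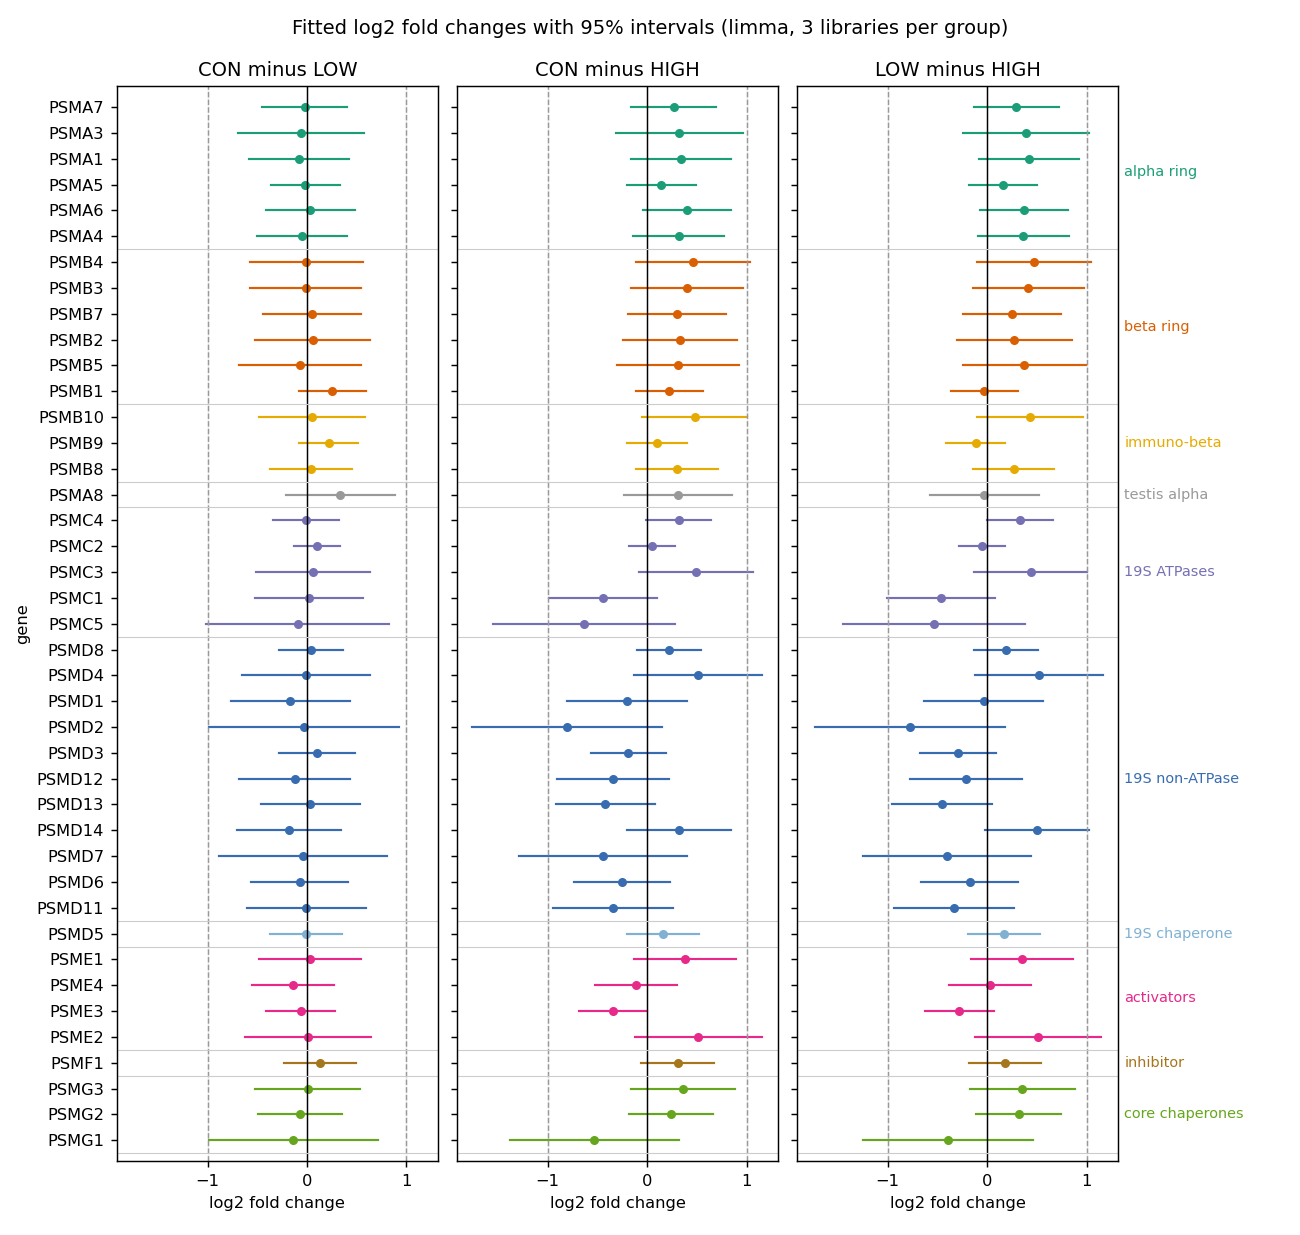
Fitted log2 fold changes of the 41 proteasome genes (points) with 95% intervals (lines) in the 3 comparisons, with dashed lines at a 2-fold change and genes coloured by structural part. Points of CON minus LOW lie near 0. In the other panels the ring genes lie to the right, except PSMB1 in LOW minus HIGH, while PSMD2 and PSMC5 lie farthest to the left.

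The comparison of 8.4 with 33.6 mM glucose gave a similar picture. Of the 12 ring genes 11 were higher in LOW, and the median log2 difference was 0.37. The exception was PSMB1 at -0.030 ± 0.15 (SE), while its annotated transcript PSMB1-201 alone was at 0.026 ± 0.15. Of the 16 cap genes 5 were higher in LOW and 11 higher in HIGH, with a median of -0.20, against -0.047 over all genes tested, of which 45.6% were higher in LOW. PSMB4 was higher in LOW by 0.47 ± 0.25 on the log2 scale (SE), PSMA1 by 0.42 ± 0.22, PSMC4 by 0.33 ± 0.15, PSMD4 by 0.52 ± 0.29 and PSMD14 by 0.50 ± 0.23, while PSMD2 was at -0.78 ± 0.42. This comparison shares the HIGH libraries with the one before, so the 2 sets of values are not independent.

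None of the 41 members was called in LOW versus HIGH, with 0.00412% of all genes called and a lowest adjusted p of 0.664 in limma, and 0 members against 7.16% of all genes had an unadjusted p under 0.05. The number at an unadjusted p was 17 without HIGH replicate 3 (15.1% of all genes), 8 without CON replicate 3 (11.85%) and 6 without CON replicate 1 (10.1%), again with 0 called. LOW and HIGH did not overlap for 11 members, 7 higher in LOW and 4 higher in HIGH, against 17.0% of all genes (5.47% higher in LOW and 11.5% higher in HIGH). Higher in LOW were PSMA1, PSMA4, PSMA7, PSMC4, PSMD14, PSME2 and PSMG3, and higher in HIGH were PSMB9, PSMC1, PSMC2 and PSME3. After median scaling 4 were left, PSMC4 and PSMD14 higher in LOW and PSMC1 and PSME3 higher in HIGH, against 18.0% of all genes. For 30 of 41 members the 95% interval lay inside a 2-fold change. Bulk RNA cannot tell fewer cells of a type from less RNA per cell, and this holds for each difference given here.

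A difference between rings and cap was also present between libraries of 1 group. In CON replicate 3 compared with CON replicate 1, which received the same treatment, 11 of 12 ring genes were higher in replicate 3 and 6 of 16 cap genes were, with PSMB1 again the exception in the rings. In HIGH replicate 3 compared with HIGH replicate 1 the numbers were again 11 of 12 and 6 of 16. Over all genes 43.9% and 44.5% were higher in replicate 3. PSMD2 differed by -1.78 on the log2 scale between these CON libraries and PSMC5 by -1.63, more than any group difference of a member. A group difference is between means of 3 libraries, which vary less than single libraries. These CON libraries were also the farthest apart of their group on the first principal component.

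The difference between those CON libraries ran parallel to that between LOW and HIGH, with which it shares no library. Over the 41 members Pearson's r of the 2 differences was 0.929 and Spearman's rho 0.906, and 38 of 41 had the same sign. Over all 24243 genes r was 0.473, rho 0.543 and the share with the same sign 71.2%. These are descriptions across genes of the same libraries, and genes are not independent replicates. PSMB9, PSMC2 and PSME4 were the members with opposite signs. Members with a higher mean FPKM tended to lie on the positive side of the LOW minus HIGH difference (rho 0.440 over the members, 0.263 over all genes), and the genomic span of a gene ranked with it only weakly (rho -0.139 and -0.0427).

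**Figure D4:**
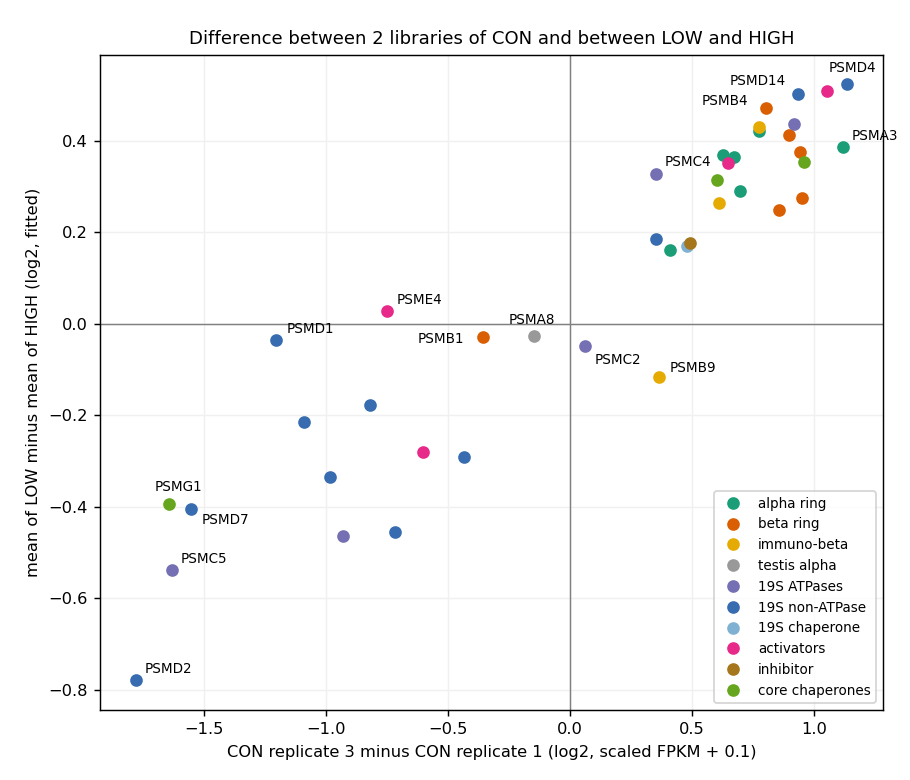
For each proteasome gene, the log2 difference between CON replicate 3 and CON replicate 1 (horizontal) against the fitted log2 difference between LOW and HIGH (vertical), coloured by structural part. Ring genes except PSMB1 sit at the upper right and PSMD2, PSMC5, PSMD7 and PSMG1 at the lower left, with 38 of 41 genes having the same sign on both axes.

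The balance of rings to cap within a library, which needs no scaling, varied in the same way. The summed FPKM of the 12 ring genes was 1.98, 2.73 and 3.74 times that of the 16 cap genes in CON, 2.598, 2.81 and 2.97 times in LOW and 1.61, 2.14 and 2.85 times in HIGH. HIGH replicate 3 fell within LOW, and CON reached from below to above LOW, so the groups overlapped. PSMB4 exceeded PSMD2 by 5.52, 11.1 and 33.4 times in CON, 9.96, 14.4 and 13.6 times in LOW and 2.67, 4.98 and 10.8 times in HIGH. The share of small RNA moved with these ratios, being 56.6, 69.6 and 73.8% in CON, 71.4, 73.9 and 76.3% in LOW and 32.0, 54.0 and 72.3% in HIGH. It was lower in HIGH replicates 1 and 2 than in any other library. A fit with this share as a covariate therefore cannot separate its part from that of glucose, which was not tested. With that share in the model, 8 of 12 ring genes were higher in CON than in HIGH and 1 of 12 higher in LOW than in HIGH, with medians of 0.054 and -0.062. The cap counts turned as well, to 10 of 16 higher in CON than in HIGH and 10 of 16 higher in LOW than in HIGH, with medians of 0.018 and 0.058.

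**Figure D5:**
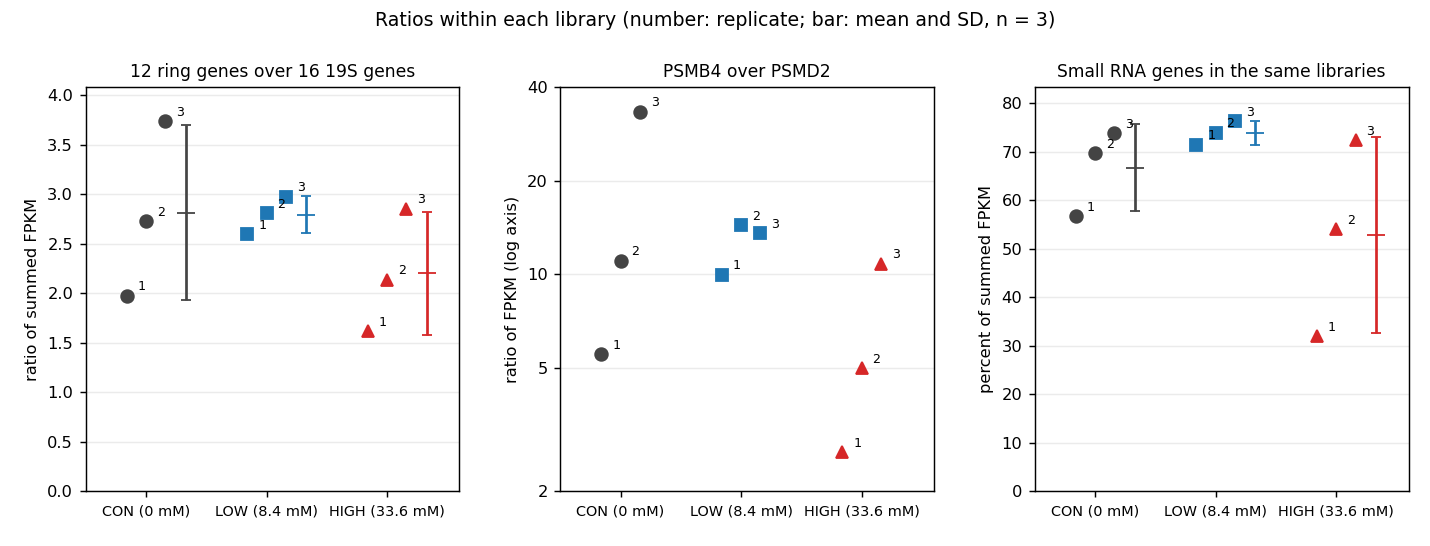
Ratio of summed FPKM of ring genes to cap genes (left), ratio of PSMB4 to PSMD2 on a log axis (middle) and share of small RNA genes in summed FPKM (right), with 1 numbered point per library and, on the linear axes, the mean and SD of each group. In all 3 panels HIGH replicate 1 is the lowest point and the LOW libraries lie close together.

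Some ratios varied less between libraries. PSMB4 to PSMB3, a pair of beta ring genes, was 1.60 to 1.82 over the 9 libraries, and PSMA1 to PSMA7, in the alpha ring, was 0.773 to 0.941. Within the activators, PSME3 to PSME1 was 0.137 ± 0.0145 in LOW and 0.221 ± 0.0766 in HIGH (SD, n = 3 each), without overlap. PSMD12 to PSMD1, a pair of cap subunits, was 0.713 ± 0.00890 in LOW and 0.809 ± 0.0405 in HIGH (SD, n = 3 each), again without overlap. These ratios were chosen among 14, and with 3 libraries in each group the smallest p that an exact two-sided permutation test can reach is 0.1.

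The spread between libraries itself differed by group. The median SD of the members on the log2 scale was 0.397 in CON, 0.0876 in LOW and 0.287 in HIGH, and LOW had the smallest SD for 36 of 41 members. Over all tested genes the medians were 0.416, 0.208 and 0.326. CON replicate 3 was the highest of the 9 libraries for 25 members and the lowest for 12, and HIGH replicate 1 was the highest for 7 and the lowest for 24.

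Leaving out single libraries moved the size of the ring difference from HIGH but not its direction, whereas the direction between CON and LOW turned. In CON minus LOW the ring median was -0.015 with 4 of 12 genes higher in CON, 0.18 with 12 of 12 without CON replicate 1, and -0.22 with 1 of 12 without CON replicate 3. It also turned to 0.023 with 8 of 12 without LOW replicate 3. The median over the ring genes in CON minus HIGH was 0.10 without CON replicate 3, 0.16 without HIGH replicate 1, 0.52 without CON replicate 1 and 0.53 without HIGH replicate 3, with 12 of 12 genes higher in CON each time. In LOW minus HIGH it was 0.18 without HIGH replicate 1 and 0.52 without HIGH replicate 3, with 11 of 12 higher in LOW in either case. The 12 ring genes come from the same RNA and are not replicates of one another.

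Transcripts were examined to see whether a gene's value came from its annotated form. The 41 genes had 56 transcripts, 14 of them assembled from the reads, and 29 genes had a single one. Of the 54 tested, 0 were called in any comparison, with 0.0228%, 0.0228% and 0.0254% of all 39411 transcripts called when CON was set against LOW, CON against HIGH and LOW against HIGH. At an unadjusted p under 0.05 there was 1 in each, against 2.84%, 6.04% and 6.60% of all. In LOW versus HIGH this was PSMC4-201, and in both comparisons of CON it was PSMD14-201.

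PSMD14 owed 98.9% of its level on average to an assembled transcript, TCONS_00143526, on chromosome 2 at 147227384-147333001. The annotated PSMD14-201 was 0.381, 0.386 and 0.439 FPKM in CON, 0.0242, 0.0106 and 0.0131 FPKM in LOW and 0.0225, 0.0181 and 0.399 FPKM in HIGH. CON lay above LOW without overlap, and HIGH replicate 3 was close to CON while its other 2 libraries were near 0. At these levels few fragments stand behind a value, and the adjusted p in limma was 1.0 for CON versus LOW. PSMG3 likewise came almost wholly, at 99.2%, from an assembled transcript. PSMA6 had an assembled form that made up 17.9 to 34.1% of its level, the highest share being in CON replicate 3.

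The genes that work around the proteasome were taken from a list of 36, of which 34 had a row and were tested. They comprised assembly factors, ubiquitin receptors, deubiquitinases and other proteins that bind the proteasome, and factors that carry or handle tagged proteins. The rest were regulators of subunit transcription, ubiquitin genes with their activating enzymes, and genes of the interferon response and antigen presentation. Of these 34, 0 were called in any comparison. At an unadjusted p under 0.05 there were 0 against LOW and 0 against HIGH for CON, and 3 between LOW and HIGH, against 2.01%, 6.76% and 7.16% of all genes. Groups did not overlap for 6, 4 and 9 of the 34, against 8.85%, 11.1% and 17.0% of all genes. Median log2 differences of the list were -0.0035, 0.033 and 0.027 in the same order.

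The 3 genes in LOW versus HIGH were all higher in HIGH, and 2 of them are described here. UBA1, the main enzyme that activates ubiquitin, was 20.6, 22.1 and 19.2 FPKM in LOW and 30.0, 28.9 and 22.5 FPKM in HIGH, with CON at 26.7, 22.6 and 19.2 FPKM (log2 fold change -0.31, adjusted p 0.664 in limma). TAPBP, which helps to load peptides onto MHC class I, was 37.5, 40.9 and 35.6 FPKM in LOW and 58.2, 55.0 and 43.5 FPKM in HIGH, with CON at 51.9, 43.8 and 35.6 FPKM (log2 fold change -0.38, adjusted p 0.663). In both LOW lay below HIGH without overlap. The order of the CON libraries, with replicate 1 highest and replicate 3 lowest, was that of PSMD2.

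Factors known to set proteasome abundance did not pass the test in any comparison. NFE2L1, a transcription factor that raises subunit genes when the proteasome is impaired, was 6.31 ± 1.71 FPKM in CON, 6.68 ± 0.655 in LOW and 7.17 ± 1.63 in HIGH (SD, n = 3 each). POMP, the maturation factor of the core, was 12.3 ± 2.26, 10.9 ± 1.12 and 10.1 ± 1.32 FPKM in the same order.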

How the data were processed

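Clean reads were aligned by the authors with Hisat2 and assembled with Stringtie, and the deposited values are FPKM per transcript and per gene. Strand settings and the genome build are not given in the sources used here. A second table as deposited has values labelled as counts. It was judged a score: per the file headers and values it equals FPKM times genomic span times 1 factor per library within 3%. This score therefore gave neither a measured depth nor a count test. The authors' own DESeq2 results were not used, and 0 columns lacked a sample.

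Genes with 0.1 FPKM or more in at least 3 libraries were tested with limma 3.58.1 (R 4.3.3) on log2(FPKM + 0.1) after median scaling on 10693 genes, with a trend of the spread and all 9 libraries. A fold change on this scale understates low genes. Calls needed a Benjamini-Hochberg adjusted p under 0.05 together with a log2 fold change beyond 1 in either direction. The test was also run on simulated data, counting adjusted p-values under 0.05. It called 94 of 193 genes changed by 1 on the log2 scale and 190 of 192 changed by 2. With nothing changed it called 0 of 22986 genes. The simulated spread was capped and the libraries were drawn independently. The simulation therefore does not give the power in these data, where the median SD over all tested genes was 0.416 in CON. The members and lists were chosen with earlier results of these data known. Values in every library are given for the highest and lowest gene of each structural part, the cutting subunits and their interferon forms, the activators and inhibitor, and listed genes with an unadjusted p under 0.05. PSMD2, PSMD4, the ratios and genes outside this rule were chosen after their values were seen. Overlap between groups refers to FPKM as deposited unless stated. For shares and medians over all genes, FPKM as deposited means without scaling between libraries but with genes lacking a symbol corrected as above. Some genes of the list around the proteasome are counted but not reported here by name.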

Additional observations from a re-analysis of the deposited data

How the results depend on the processing

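With 3 libraries per group, 0 of 41 proteasome genes and 0 of their transcripts were called in each comparison, and this count was 0 under every alternative run, with lowest adjusted p-values in limma of 0.780 (CON versus LOW), 0.186 (CON versus HIGH), 0.262 (LOW versus HIGH) and 0.186 (transcripts). The edgeR and DESeq2 alternatives were not run because the table labelled as counts holds rescaled FPKM, and summing the rows of a symbol changed nothing because each symbol had 1. The number of members at an unadjusted p under 0.05 ranged over the libraries left out from 0 to 1 (CON versus LOW), 0 to 27 (CON versus HIGH) and 0 to 17 (LOW versus HIGH). It was 5 with FPKM as deposited in CON versus HIGH and 10 with only the 2 groups compared in LOW versus HIGH.

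The labels give the 3 groups the same replicate numbers, without saying that a number marks a shared culture or day. Same-numbered libraries correlated at -0.021 to 0.0098 in their deviations for replicate 2 and at 0.106 to 0.460 for replicates 1 and 3, so the numbers were not taken as pairs. Libraries of replicates 1 and 3 each correlated best with their own number in the other groups, and those of replicate 2 did not, which is a hint from the data and not from the design. With the replicate block, 0 members were called in any comparison, and 0, 21 and 20 had an unadjusted p under 0.05 for CON against LOW, CON against HIGH and LOW against HIGH, beside 3.00%, 14.2% and 15.2% of all genes.

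With the small RNA share as a covariate, log2 differences of LOW minus HIGH turned to -0.061 for PSMB4, -0.0041 for PSMA1, 0.032 for PSMD2 and -0.013 for PSMD4, and that of CON minus HIGH to -0.073 for PSMB5, and 14 members in place of 25 were higher in LOW than in HIGH, and the cause was not tested. With the block and this share together, a fit added after seeing the data like the one limited to spans of 300 bases or more, 0 members had an unadjusted p under 0.05. TXNIP, at -1.37 against LOW and -1.19 against HIGH, passed the threshold under TMM scaling (-1.38 against LOW), with the block (-1.37 and -1.19), with the small RNA share (-1.29 and -1.35) and without CON replicate 3 (-1.51 and -1.34).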
